A study of Mus musculus with 2 samples.

Results

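This account concerns prostaglandin E2 signalling in mouse pancreatic islets, through 10 genes: the receptors Ptger1, Ptger2, Ptger3 and Ptger4, the cyclooxygenases Ptgs1 and Ptgs2, the synthases Ptges, Ptges2 and Ptges3, and the breakdown enzyme Hpgd. They were chosen by name with their signals on these arrays already known. Every probe set that the platform annotation gives to a single one of them was used. That found 8 of the 10 genes and 15 probe sets, out of 18193 genes with such a probe set in all. Ptges3 appears in the annotation only together with its pseudogene, and no probe set is listed for Ptgs1, so neither was analysed here.

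Islets came from adult mice of 2 to 3 months and mixed background. The control array holds wildtype littermates, and the other holds mice with a beta cell-specific knockout of Zbtb20, which encodes a zinc finger transcriptional repressor. Each group is 1 Affymetrix array. All islets were freed with collagenase, hand-picked, kept in culture overnight and frozen, so both arrays measured cultured islets. The driver of the deletion and the number of animals behind each array are not stated in the labels. The study's question was which genes ZBTB20 controls in beta cells.

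Prostaglandin E2 is made from arachidonic acid, which phospholipases free from membranes. Cyclooxygenases turn it into an unstable intermediate, and prostaglandin E synthases complete the hormone, which leaves the cell and acts on nearby receptors. The receptors differ in coupling. EP2 and EP4, the products of Ptger2 and Ptger4, raise cAMP through the stimulatory G protein. EP3, the product of Ptger3, lowers cAMP through inhibitory G proteins, and EP1, the product of Ptger1, raises calcium. In beta cells cAMP amplifies glucose-stimulated insulin secretion, and EP3 is known as a receptor through which prostaglandin E2 restrains it.

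Values are MAS5 signals, which are linear intensities of a probe set. With 1 array per group there is no replicate, so no difference below was tested, none has an error or a p-value, and each ratio compares 2 RNA preparations. Probe sets for different genes hybridise with different strength, so a difference in signal between genes is not read as a difference in expression. Sums over lists, matching by brightness and the nearest genes do set genes together by signal. This difference in strength enters them. The median signal of each array (21.6 in control and 21.7 in knockout-labelled islets) was set as the lower limit of reading, called the floor. Weaker signals were lifted to this level before ratios were taken. A ratio with 1 side under it is a bound written as "at least", and no ratio is given where both sides lie under it. Fewer cells of a type and less RNA per cell cannot be told apart in such islet RNA. The genes were proposed with their values on these arrays known, so their values are a description.

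The probe sets of Zbtb20 did not differ in 1 direction. Of its 9 probe sets, 4 were higher and 5 lower in the knockout-labelled islets, with log2 ratios from -0.87 to 0.54. The deleted stretch is not named in the labels, and cells other than beta cells keep the gene, so these signals do not check the genotype. The array is therefore called knockout-labelled. Markers of the labelled tissue were present, with Ins2, the insulin gene, reading 9194 in control and 7786 in the other array, and Gcg, the glucagon gene, reading 11215 and 10292. Exocrine transcripts were present too, and the signals of 7 acinar markers summed to 32901 in control islets and to 17170 in the others.

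Of the 8 genes with a probe set, 5 lay above the floor on at least 1 array. Taken by their brightest probe set, Ptger3 and Ptger4 were more than 2-fold higher in the knockout-labelled islets, Ptgs2 was more than 2-fold lower, and Ptges and Ptges2 differed by less. Over all 11802 genes above the floor, 1.82% were higher by 2-fold or more and 1.44% were lower by as much. Ptger3 was above the floor in the knockout-labelled array alone, so the floor itself let it be counted only as higher. Ptger1, Ptger2 and Hpgd were under the floor on both arrays.

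**Figure D1:**
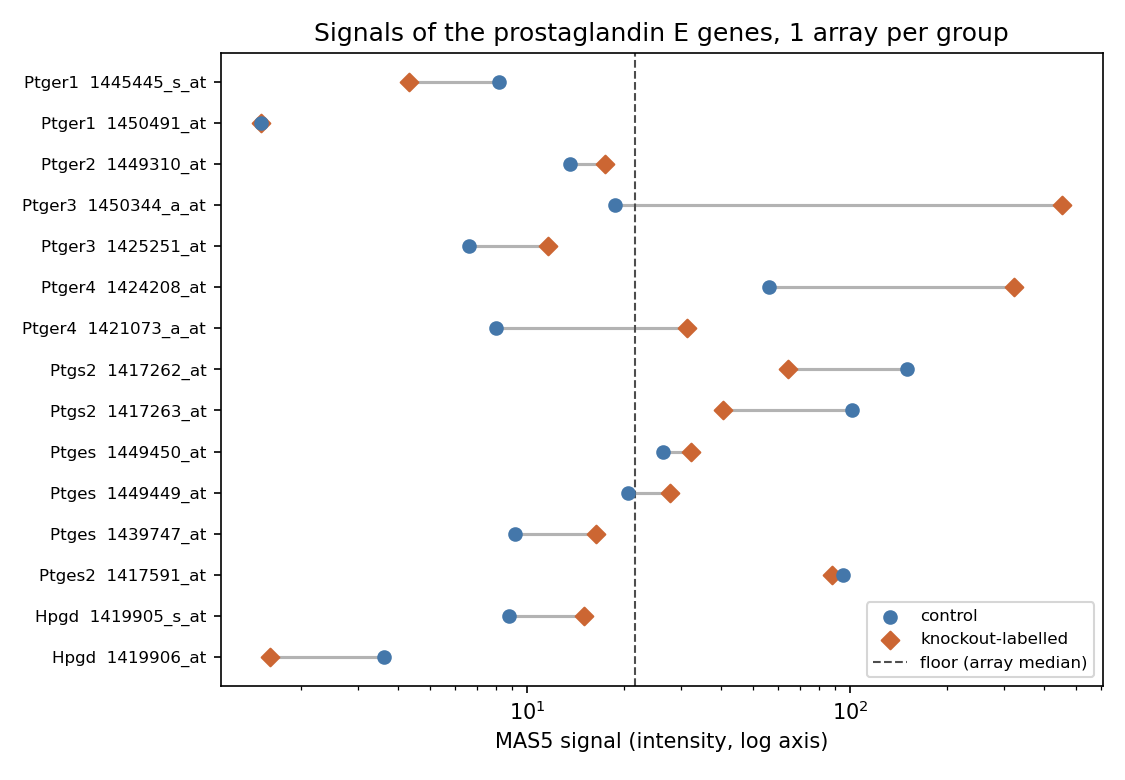
MAS5 signal on a log axis for the 15 probe sets of 8 genes, with a circle for the control array, a diamond for the knockout-labelled array and a dashed line at the floor of 21.6. The diamonds of Ptger3 1450344_a_at (455.0) and Ptger4 1424208_at (321) stand far to the right of their circles, while both Ptgs2 probe sets run the other way.

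Ptger3 gave the widest separation. Its probe set 1450344_a_at, whose suffix marks a design that covers alternative transcripts of 1 gene, read 18.7 in control islets. In knockout-labelled islets it read 455.0, which is at least 21.1-fold higher. The control signal was under the floor and the knockout-labelled signal far above it. With the control side lifted to the floor this was the highest ratio of the 11802 genes. Both the bound and its rank follow the floor. With a floor at the 30th percentile it ranked at place 2 of 15370 genes. It was at least 6.79-fold when the floor was set at the 70th percentile of each array, where 4 genes had a higher ratio, and the ratio was 13.6-fold, at place 2 of 18193 genes, with a pseudocount of 16 and no floor. The other Ptger3 probe set, 1425251_at, read 6.6 and 11.6, under the floor on both arrays, and gives no ratio. EP3 has several splice forms that differ at the end of the protein, and which of them each probe set reads is not stated in the annotation. The reading therefore rests on 1 probe set.

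Ptger4 was above the floor on both arrays. Its probe set 1424208_at read 56.0 in control islets. The knockout-labelled array read 321, which is 5.73-fold higher and the 17th highest ratio of all genes. The weaker probe set 1421073_a_at read 8.0 and 31.2, at least 1.44-fold higher and in the same direction (at least 3.59-fold when the floor was set at the 30th percentile). With the mean log2 ratio over both probe sets in place of the brighter one, Ptger4 was 2.88-fold higher, at place 58 of 11857 genes. With the brighter probe set and a floor at the 30th percentile it ranked at place 32 of 15370 genes. Ptger4 can also be set against genes of like brightness. Among the 500 genes nearest to it in mean signal, the central 95% of log2 ratios ran from -0.80 to 0.89, and none exceeded its 2.52. Ptger4 was chosen with its values known, so this describes its place and is no test.

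The other receptors were near the bottom of the signal range. Ptger2, the other receptor that raises cAMP, read 13.6 in control and 17.5 in knockout-labelled islets with its single probe set. Ptger1 read 8.2 and 4.3 with 1445445_s_at and 1.5 on both arrays with 1450491_at. Whether these receptors are expressed cannot be read from signals under the floor.

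Sequences just upstream of the start sites are shown for the 3 genes past 2-fold, so that both receptors can be set beside Ptgs2. Each runs from 250 bases before to 50 bases after the RefSeq start in GRCm38.p6. Ptger3 lies at chr3:157566626-157566925 on the plus strand, Ptger4 at chr15:5244138-5244437 on the minus strand and Ptgs2 at chr1:150099781-150100080 on the plus strand. Capitals mark every match, on either strand, to 8 motifs: the cAMP response element core TGACG, the full element TGACGTCA, AP-1 (TGANTCA), the E-box CACGTG, the TATA box TATAAA, the STAT-type element TTCNNNGAA, the CCAAT box and the GC box GGGCGG.
Ptger3: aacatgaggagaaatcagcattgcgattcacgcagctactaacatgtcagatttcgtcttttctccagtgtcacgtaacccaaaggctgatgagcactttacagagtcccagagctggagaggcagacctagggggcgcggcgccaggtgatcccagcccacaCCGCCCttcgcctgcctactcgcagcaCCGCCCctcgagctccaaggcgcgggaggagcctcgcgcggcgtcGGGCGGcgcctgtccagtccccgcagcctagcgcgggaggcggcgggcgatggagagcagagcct
Ptger4: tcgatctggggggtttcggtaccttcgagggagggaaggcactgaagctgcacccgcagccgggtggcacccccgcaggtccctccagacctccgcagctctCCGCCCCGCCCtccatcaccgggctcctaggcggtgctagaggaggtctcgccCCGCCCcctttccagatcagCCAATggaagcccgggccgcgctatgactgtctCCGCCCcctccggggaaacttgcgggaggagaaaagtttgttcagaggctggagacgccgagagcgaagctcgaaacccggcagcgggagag
Ptgs2: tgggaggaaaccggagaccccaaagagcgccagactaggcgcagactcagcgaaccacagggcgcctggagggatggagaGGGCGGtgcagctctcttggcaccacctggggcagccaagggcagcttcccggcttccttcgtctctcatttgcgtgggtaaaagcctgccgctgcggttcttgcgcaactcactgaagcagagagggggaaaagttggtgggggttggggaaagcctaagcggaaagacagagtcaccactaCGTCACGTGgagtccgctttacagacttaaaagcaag

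Both receptor promoters were rich in GC, at 64.0% for Ptger3 and 67.0% for Ptger4, against a median of 52.7% over 32851 promoters of the same length. The Ptgs2 promoter had 59.3%, and those of Ptges and Ptges2, whose sequences are not shown, had 60.0% and 58.7%. Ptger3 held 3 GC boxes and no other searched motif. Ptger4 held 4 GC boxes, of which a pair overlap by 1 base, and a CCAAT box from -75 to -71. At least 1 GC box is in 35.7% and at least 1 CCAAT box in 37.4% of all these promoters. Ptgs2 held 1 GC box and a cAMP response element core that overlaps an E-box. The overlapping stretch lies from 14 to 22 bases past the RefSeq start, and other possible start sites were not examined. The core is in 20.8% and the E-box in 7.15% of all promoters. These are matches of letters within a short window, and nothing about binding was measured.

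Ptgs2, the inducible cyclooxygenase that inflammatory cytokines switch on, had 2 probe sets with similar ratios. It read 150.7 in control and 64.3 in knockout-labelled islets with 1417262_at, which is 2.34-fold lower. With 1417263_at it read 101.2 and 40.5, which is 2.499-fold lower. All 4 signals were above the floor, and the control was the higher array in both. With the higher floor at the 70th percentile, 1417263_at gave at least 1.47-fold and 1417262_at at least 2.20-fold. Ptgs2 had the 74th lowest ratio of the 11802 genes. Among the 500 genes nearest in mean signal, 3 had a lower ratio. Ptgs2 too was chosen with its values known, so this is no test.

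The synthases differed less between the arrays. Ptges, the inducible membrane-bound synthase that works together with Ptgs2, read 26.4 in control and 32.1 in knockout-labelled islets with 1449450_at, 1.22-fold higher. Its 1449449_at read 20.5 and 27.7, at least 1.28-fold higher, and 1439747_at read 9.2 and 16.4, under the floor. Its signals were close to or under the floor, and all 3 probe sets read higher in the knockout-labelled islets. Ptges overlaps the predicted genes Gm13400 and Gm52550 in RefSeq's annotation. Ptges2, another membrane-associated synthase, read 95.5 and 88.0, 1.09-fold lower. Hpgd, the dehydrogenase that begins the breakdown of prostaglandin E2, read 8.8 and 15 with 1419905_s_at and 3.6 and 1.6 with 1419906_at. These probe sets pointed in opposite directions, and all 4 signals were under the floor.

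**Figure D2:**
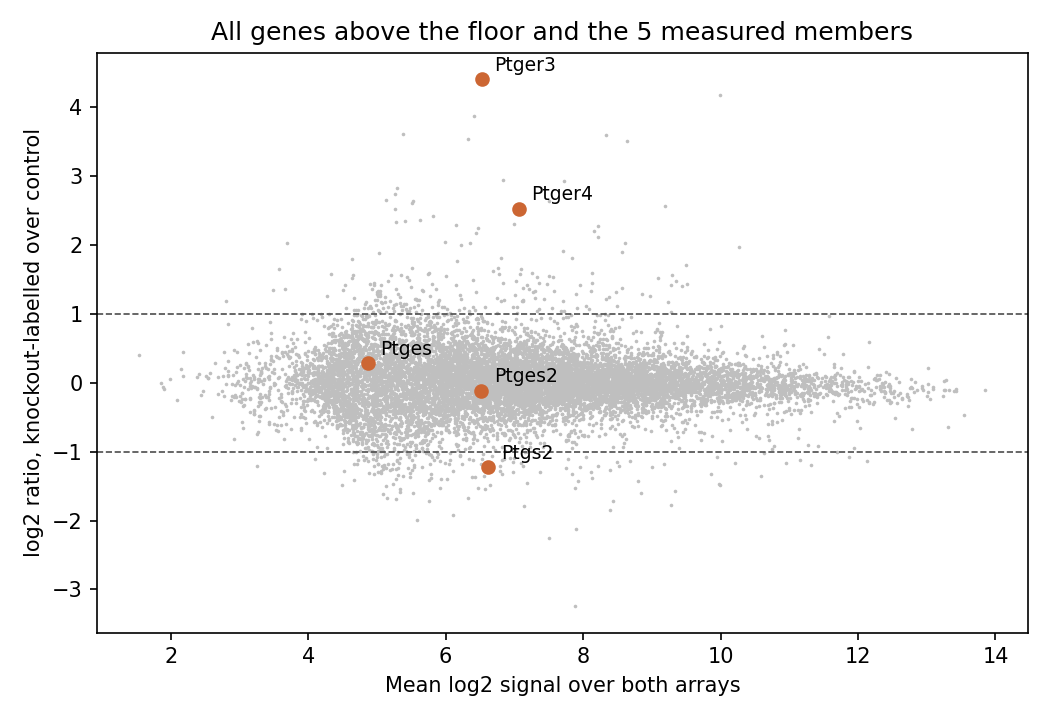
Log2 ratio of knockout-labelled over control signal against mean log2 signal for 11802 genes (grey), with the 5 measured prostaglandin E genes in orange and dashed lines at 2-fold. Ptger3 (4.40, a bound) is the highest point, Ptger4 (2.52) lies far above the cloud, Ptgs2 (-1.23) lies below the lower line, and Ptges (0.28) and Ptges2 (-0.12) lie within the cloud.

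The genes nearest to each receptor in the plane of both log2 signals were named as those most like it over these 2 arrays. Signals under the floor were lifted to it for this distance, and the 11134 genes above the floor in the knockout-labelled array were compared. Nearest to Ptger3 were Aldh1a3, which encodes a retinaldehyde dehydrogenase (from 22.2 to 324), the peptide hormone gene Cck (from 23.5 to 273) and the adhesion receptor gene Adgrg6 (from 6.6 to 264). All 3 were close to or under the floor in control, where signals under the floor count as equal. Nearest to Ptger4 were Cttnbp2 (from 57.4 to 282), the water channel gene Aqp4 (from 41.1 to 316) and the matrix protein gene Tgfbi (from 77.7 to 243). With 1 array per group such likeness describes a pair of numbers per gene.

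Prostaglandin E2 shares its substrate, its enzymes and its signalling with other genes, which were read from 11 lists. Of 86 listed genes above the floor, 4 were higher by 2-fold or more (4.65%) and 2 lower by as much (2.33%), and the median log2 ratio was -0.022. All genes had 1.82% and 1.44% and a median of 0. A gene with 1 side under the floor was counted by its bound, so its difference may be larger than counted. The 4 higher genes were Pla2g7, Gnai1, Pde7b and Pde8b, and the 2 lower ones were Il6 and Tnfaip3.

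Substrate supply and the sister prostanoids stayed mostly within 2-fold. Of 11 arachidonate-releasing or related phospholipase genes above the floor, Pla2g7 alone was past 2-fold by its brightest probe set. It encodes a secreted enzyme that degrades platelet-activating factor and read 53.1 in control and 112 in knockout-labelled islets. The probe sets of Pla2g1b, a pancreatic secreted phospholipase gene, went in opposite directions. The brightest read 160.2 and 186.5, while another read 230.9 and 103.1, which is 2.24-fold lower. Pla2g4a, the cytosolic phospholipase that commonly feeds cyclooxygenases, read 13.1 and 20.3, under the floor on both arrays. Pla2g4a is named for its role and Pla2g1b for this difference, both after their values were seen. None of 5 other prostanoid synthase genes was past 2-fold. Hpgds, a prostaglandin D synthase, read 509 and 431, and the aldo-keto reductase gene Akr1b8 read 323 and 295. None of 4 lipoxygenase and leukotriene genes was past 2-fold, with Lta4h, the leukotriene A4 hydrolase gene, at 415 and 451 and Alox5ap at 86.3 and 91.4.

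The rest of the prostanoid receptor family was mostly at or under the floor. Of 6 receptor-related genes, 4 were above the floor on at least 1 array and 1 on both, and the median log2 ratio was -0.24 with bounds included. Ptgfrn, the 1 measured on both arrays, a regulator of the prostaglandin F receptor, read 33.4 in control and 28.7 in knockout-labelled islets. Ptgir, the prostacyclin receptor gene, read 29.3 and 16.1, at least 1.35-fold lower. Ptgdr, a prostaglandin D2 receptor gene, read 26.1 and 17.5, at least 1.20-fold lower. Tbxa2r, the thromboxane receptor gene, read 2.8 and 24.9, at least 1.15-fold higher. These 3 bounds do not say whether the genes differ by more than 2-fold. Ptgdr and Tbxa2r are named for completeness after their values were seen. Of all 11802 genes, 5879 had ratios below 1. All 5 genes of prostaglandin transport and reduction were among them, with log2 ratios between -0.58 and -0.066 in their brightest probe set. The lowest was that of Slco2a1, a prostaglandin uptake transporter gene, of which another probe set went the other way, from 24.4 to 40.4. Among them Abcc4, an efflux pump that can export prostaglandins, read 706 and 503, and Zadh2 read 290.1 and 269.9.

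**Figure D3:**
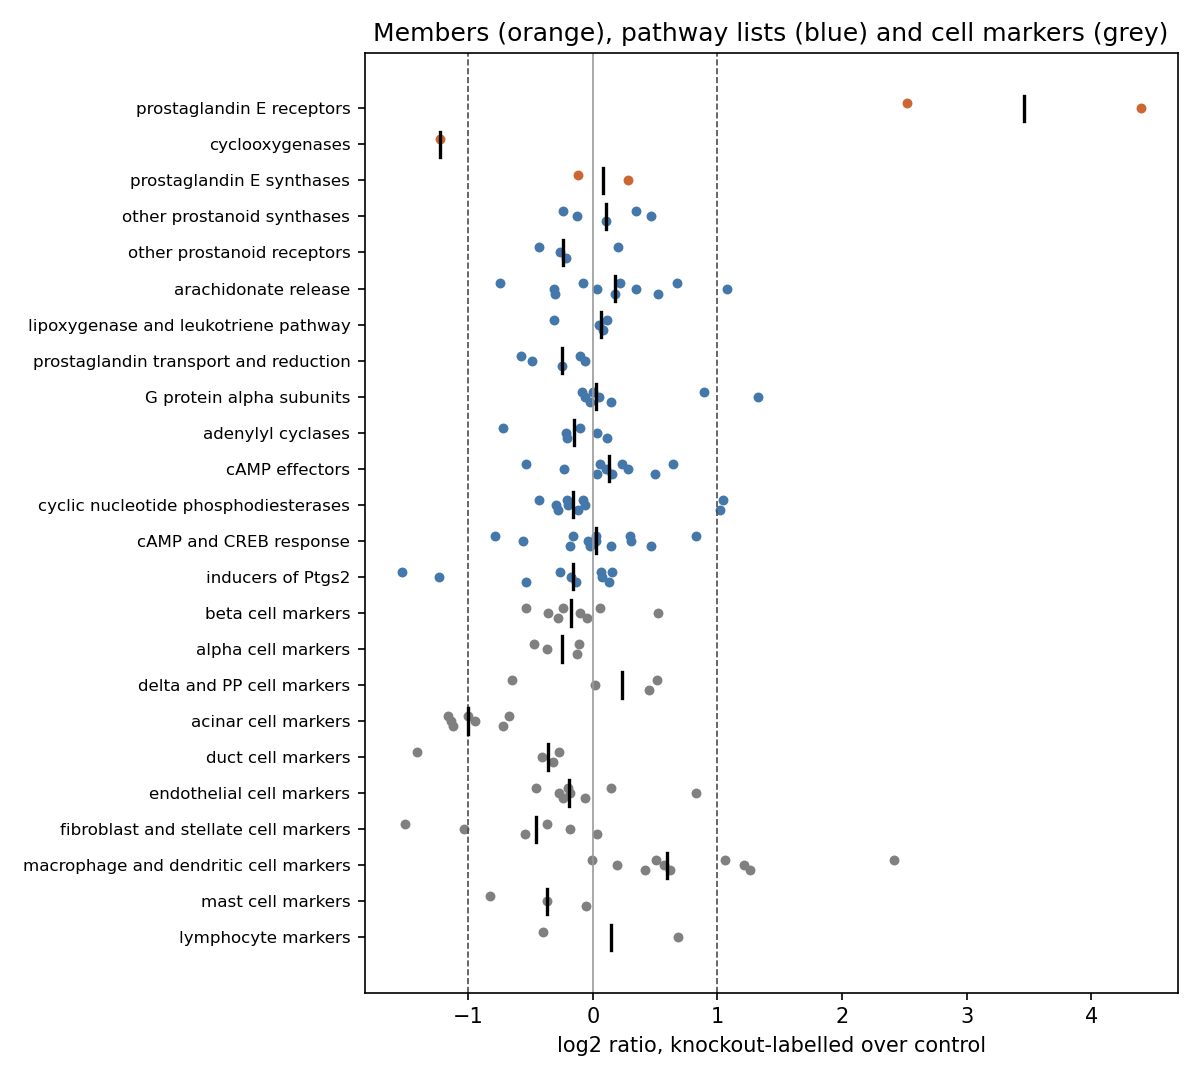
Log2 ratio of knockout-labelled over control signal for each gene above the floor, by list, with a black bar at the list median, a grey line at 0 and dashed lines at 2-fold. Orange points are the prostaglandin E genes, blue points the pathway lists and grey points the cell markers, and ratios with 1 side under the floor are drawn at their bound. Ptger4 and Ptger3 lie at 2.52 and 4.40, the macrophage markers centre at 0.60 and the acinar markers at -1.005.

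Downstream of the receptors, Gnai1 was the only 1 of 8 G protein alpha subunit genes past 2-fold. It encodes an inhibitory subunit of the kind EP3 acts through, and its signal went from 175 in control to 438, which is 2.505-fold higher. Its other probe sets went from 40.7 to 87.7 and from 26.3 to 38.1, so all 3 were higher, and their mean ratio was 1.98-fold. Gnas, the stimulatory subunit that EP4 acts through, read 5334 and 5256, and Gnai2 and Gnai3, further inhibitory subunits, had log2 ratios of 0.15 and -0.066. Gnao1, another listed alpha subunit gene, read 140.3 and 261.1, 1.86-fold higher, while another probe set read 66.2 and 58.3. Gnas, Gnai2, Gnai3 and Gnao1 are named for their role after their values were seen.

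Of the listed genes that make, sense and break down cAMP, only Pde7b and Pde8b were counted as past 2-fold, both higher. Over all 11802 genes, 1.82% were higher by 2-fold or more and 1.44% lower by as much. With shares this low, a short list can readily hold none. None of 6 adenylyl cyclase genes above the floor was past 2-fold, with Adcy9 going from 369 to 320 and Adcy6 from 73.6 to 75.4. Adcy4 (35.7 and 15.7) was at least 1.65-fold lower and Adcy1 (8.5 and 23.4) at least 1.08-fold higher. These bounds do not say whether the genes differ by more than 2-fold. None of 10 cAMP effector genes was past 2-fold, with Rapgef3 (31.5 and 16.9) counted by its bound of at least 1.45-fold lower. Prkar1a and Prkar1b, regulatory subunits of protein kinase A, read 4942 and 5144, and 1110 and 1232. Of 10 phosphodiesterase genes, 8 had ratios below 1, among them Pde1b by a bound, against 5879 of all 11802 genes. The 2 above 1 were the cAMP-specific enzymes Pde7b (from 56.3 to 116) and Pde8b (from 33.5 to 67.9), 2.06-fold and 2.03-fold higher. The other Pde8b probe set went from 30.2 to 71.8, while those of Pde7b were under the floor. Both ratios lie at the limit and were under 2-fold with a pseudocount of 16 and no floor (1.82-fold and 1.69-fold), as was Pla2g7 (1.85-fold). None of 13 genes of the cAMP and CREB response was past 2-fold, and their median was 0.022. Dusp1, a phosphatase gene, read 2082 and 1410, and Crem, a cAMP-responsive repressor gene, read 1331 and 1295.

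A further list held cytokine and NF-kappaB pathway genes that induce Ptgs2 or are induced with it. Of 10 such genes above the floor, 2 were past 2-fold, both lower, and of these 1 encodes a cytokine. Over all 11802 genes, 1.44% were lower by 2-fold or more, and this list was chosen with earlier results of these data known. The cytokine gene Il6 read 400.4 in control and 138 in knockout-labelled islets. Tnfaip3, which encodes an inhibitor of NF-kappaB, read 329 and 140, and its other probe set read 58.5 and 40.4, so that the mean over both was 1.84-fold lower. Il1b, a strong inducer of Ptgs2, read 119 and 125. The cytokine genes Il1a and Tnf were under the floor on both arrays, and these 3 are named for their role after their values were seen. The list median was -0.16.

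Markers of other cells also differed between the arrays, and whether this bears on the prostaglandin E genes was not tested. Macrophages also carry EP4 and can make prostaglandin E2. Of 10 macrophage and dendritic cell markers above the floor, 9 had ratios above 1, 4 of them at least 2-fold. Over all 11802 genes, 5893 had ratios above 1, 5879 had ratios below 1 and 1.82% were at least 2-fold higher. All 12 listed macrophage and dendritic cell markers summed to 814 in control islets and to 1293 in the knockout-labelled ones. Csf1r read 140 and 160 with its brightest probe set and 25.9 and 57.8 with another. Its remaining probe set went the other way, from 54.0 to 48.5. Adgre1 read 37.0 and 55.0, and Mrc1 24.5 and 131, the last 5.34-fold higher. Lyz2, the marker with a ratio below 1, read 64.0 and 63.6. Itgax (12.2 and 4.6) and Aif1 (15.3 and 19.4) were under the floor on both arrays. All 7 acinar markers had ratios below 1, with a median of -1.005. Medians were also below 0 for endothelial markers (-0.19 over 8 genes), duct markers (-0.36 over 4 genes) and mast cell markers (-0.37 over 3 genes). Fibroblast and stellate cell markers had a median of -0.46 over 6 genes, and Dcn and Col3a1, which encode matrix proteins, were more than 2-fold lower. Their list summed to 294 in control and 218 in the other array. Of the duct markers, Car2 was at least 2.66-fold lower. Lymphocyte markers gave 2 genes above the floor, with a median of 0.14. The endocrine lists had medians of -0.17 for beta cells, -0.24 for alpha cells and 0.23 for delta and PP cells, none with a gene past 2-fold. The part of these differences in the Ptger3, Ptger4 and Ptgs2 signals was not tested.

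**Figure D4:**
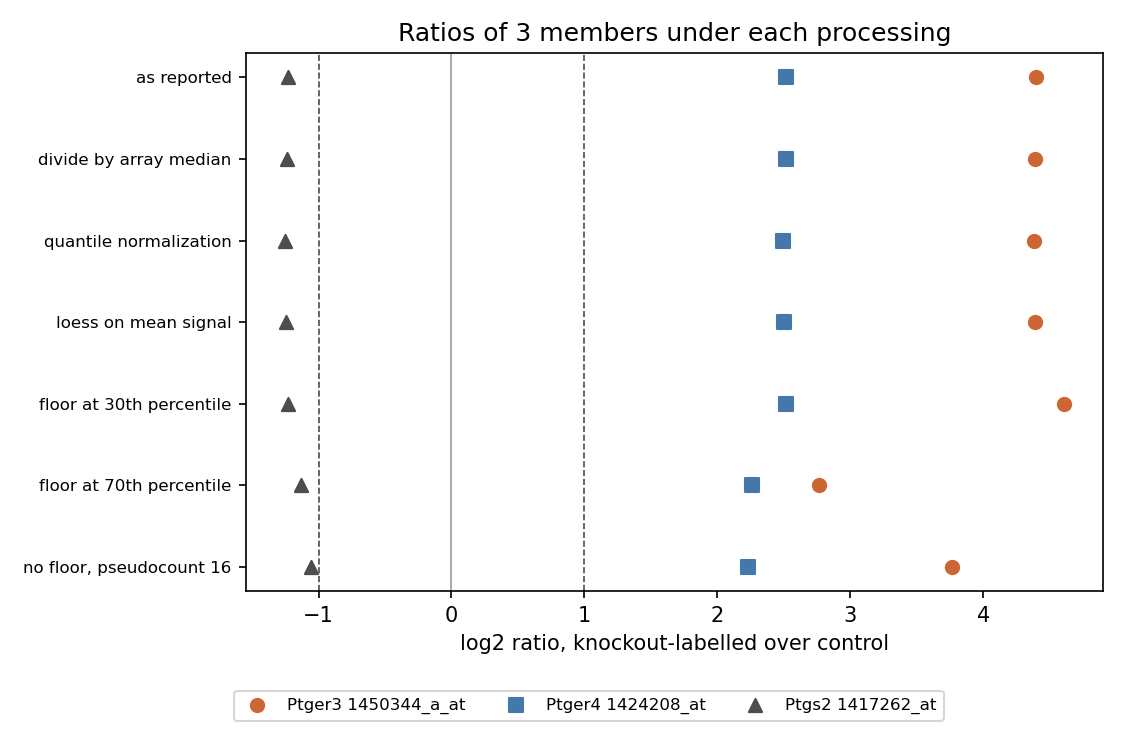
Log2 ratio of knockout-labelled over control signal for 1 probe set each of Ptger3, Ptger4 and Ptgs2 as reported and under 6 other processings, with a grey line at 0 and dashed lines at 2-fold. Ptger3 runs from 2.76 to 4.60, Ptger4 from 2.23 to 2.52 and Ptgs2 from -1.25 to -1.05, and no point crosses its 2-fold line.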

How the data were processed

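Total islet RNA (6 µg per array) was labelled with biotin and hybridised to Affymetrix arrays, per the labels. The authors deposited linear MAS5 intensities, and the submitters' processing notes name MAS5. Its version, scaling target and detection calls were not stated. The deposited table held 45037 probe sets and was used without further scaling. GEO's platform annotation, which can be old, gave 1 gene to 34945 probe sets, several to 932 and none to 9160. RefSeq tables (GRCm38.p6) supplied synonyms, overlapping genes and promoters, with an entry for 9 of the 10 genes. A gene was read by its probe set with the highest mean log2 signal. Ratios were taken after the floor, with a limit of 2-fold, in Python 3.11.15 with pandas 2.3.3 and numpy 2.4.6, and the code was tested on simulated data. No test was made, since each group has 1 array.

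The 10 genes and the 25 lists were chosen with earlier results of these data known. Of 209 listed symbols, 195 had a probe set of 1 gene, and the others were not analysed here. Named by rule were all probe sets of the 10 genes, Zbtb20, each pathway list's genes past 2-fold or else its 2 brightest, and the 3 genes nearest to Ptger3 and to Ptger4. Other genes in the text, among them Slco2a1 and the single cell markers, were named after their values were seen. Alternatives were 3 scalings (division by the median, quantile, and loess with statsmodels 0.14.6), floors at the 30th and 70th percentile, a pseudocount of 16 without a floor, the mean over probe sets, and limits of 1.5-fold and 3-fold.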

Additional observations from a re-analysis of the deposited data

How the results depend on the processing

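No paired analysis was possible because each group has 1 array. For want of replicates, a log2 ratio was called moved when it shifted by more than 0.21, the median SD among probe sets of 1 gene, which leaves out all variation between animals. Lowering or raising the floor moved Ptger3 to 4.60 (30th percentile) and 2.76 (70th percentile), and it moved to 3.76 with a pseudocount of 16 and no floor. Ptger4 moved to 2.26 under the higher floor, to 2.23 with the pseudocount and to 1.525 with the mean over probe sets. Ptgs2 did not move under the 6 settings applied to its brightest probe set, and no member past 2-fold changed direction. At a limit of 3-fold, 0 members were lower, and under every other setting 2 members were higher and 1 lower. The counts of higher and lower pathway genes were 7 and 4 under the lower floor, 8 and 5 at 1.5-fold and 0 and 0 at 3-fold. The higher floor left 1 higher, the pseudocount 2 higher, and the mean over probe sets 1 lower. Over all genes, higher and lower counts were 695 and 638 (30th percentile), 96 and 64 (70th percentile), 814 and 732 (1.5-fold) and 51 and 17 (3-fold). Of 143 list medians recomputed, 138 did not move and 5 did. Under the 3 scalings the median over all genes stayed within 0.0067 of 0. Signals near the floor, such as those of Ptges, limit what these arrays can show.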

Other observations

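The probe sets that the annotation shares between Ptges3, the cytosolic synthase and chaperone partner, and its pseudogene were not used for any count. They read 1510.0 in control and 1432 in knockout-labelled islets (1417998_at) and 1370 and 1303 (1460221_at), log2 ratios of -0.076 and -0.073. Signal of the gene and its pseudogene cannot be told apart there.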
